A study of Mus musculus with 4 samples.

Results

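Sp6 occupancy was described at the genes of the SOX and forkhead families of transcription factors. Members were the genes named in either deposited Sp6 gene table as Sox followed by digits, or as Fox followed by 1 letter and digits, and Sox21 was left out. These were 9 genes (6 SOX and 3 forkhead) of the 62 protein-coding genes of both families in the RefSeq gene table. A further 2 family genes, Foxn3 and Foxo3, were listed under older names, as Ches1 and Foxo3a. They are counted apart from the members, and the other 51 genes were absent from both tables.

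Chromatin immunoprecipitation with sequencing (ChIP-seq) was done on dental epithelium and dental mesenchyme of C57BL/6 mice on postnatal day 1, with molars pooled (30 in all per the labels' protocols) and a Sp6 antibody made in house. The Sp6 libraries were 1 from epithelium and 1 from mesenchyme, each with 1 input library (chromatin without antibody) from the same tissue, 4 samples in all. No transgene, mutation or treatment is named in the labels. There were no replicates, so no difference between tissues could be tested, and the text describes these libraries. Expression was not measured, so the tissue labels could not be set against marker genes.

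SOX proteins bind DNA through a high-mobility-group (HMG) box and bend it, and they often act with a partner factor. Forkhead proteins bind through a winged-helix domain, and some of them open closed chromatin or are held out of the nucleus by kinase signalling. Both families set cell fates in many organs. In teeth, Sox2 marks epithelial stem cells of the mouse incisor, and Foxi3 is a dental epithelium gene downstream of ectodysplasin signalling. Sp6 (epiprofin) belongs to the zinc-finger SP/KLF family and is needed for normal tooth formation.

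The Sp6 libraries had 3811 intervals in epithelium and 11436 in mesenchyme, of which 2381 and 7211 were annotated, that is, paired with a gene by the authors. An interval is a region where sequenced fragments pile up above the surroundings, and its peak value is the density of fragments that the authors give for its highest bin. The median peak value of annotated intervals was 27 in epithelium and 34 in mesenchyme. Read totals are not known and the scaling between libraries is not stated, so peak values rank intervals within a library only. A percentile below is the share of annotated intervals of the same library with a lower peak value. Input intervals numbered 17 for epithelium and 24 for mesenchyme.

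Of the members, 4 were listed in epithelium (Foxp1, Foxp2, Sox13 and Sox30), with 1 interval each, and all 9 in mesenchyme, with 15 intervals. The 4 genes of epithelium were therefore also genes of mesenchyme, while Sox4, Sox5, Sox6, Sox15 and Foxn4 were listed in mesenchyme only. The mesenchyme list is the longer one, and none of these mesenchyme-only genes stayed listed when both lists had equal numbers of intervals. The members made up 6.45% of the 62 family genes in epithelium and 14.5% in mesenchyme. By names as the tables give them, 7.20% of 21631 protein-coding genes were listed in epithelium and 17.2% in mesenchyme. With older names resolved, 5 family genes were listed in epithelium (8.06%, Wilson 95% interval 3.49 to 17.5%) and 11 in mesenchyme (17.7%, 10.2 to 29.0%). The shares of all protein-coding genes counted the same way were 8.92% in epithelium and 21.4% in mesenchyme. Both tissues listed 5 family genes (8.06%) and 8.24% of all protein-coding genes. The families were thus listed about as often as genes in general, and the counts are no result about SOX or forkhead genes as such.

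**Figure D1:**
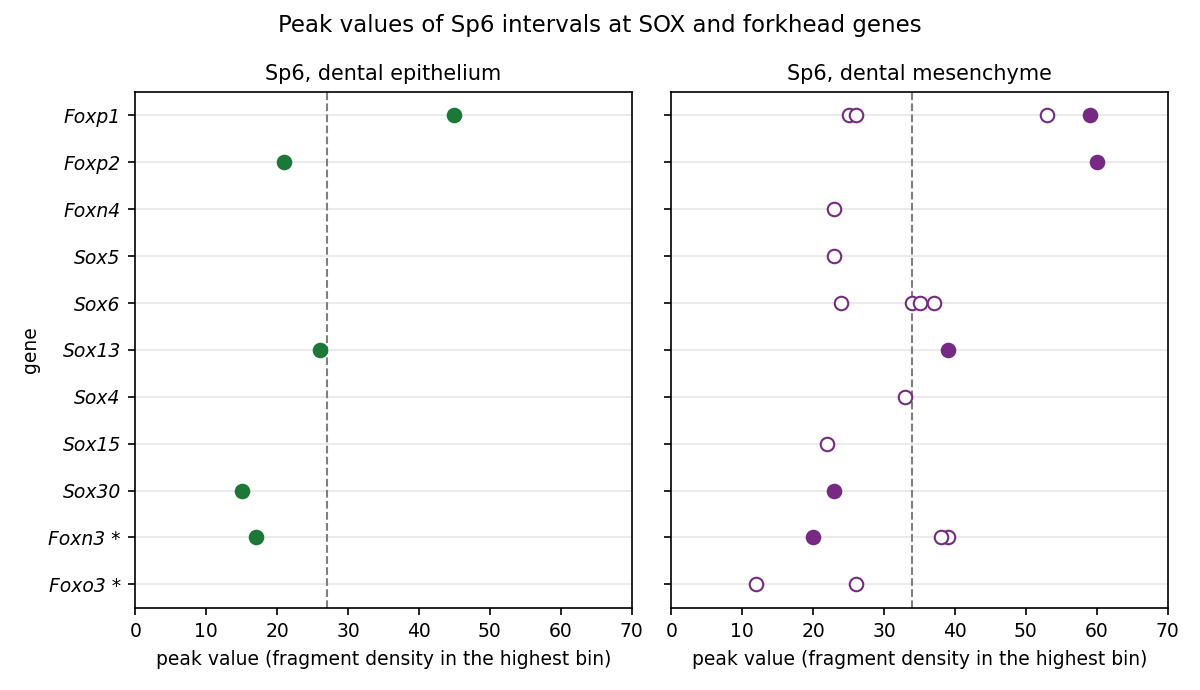
Peak value (x axis, density of fragments in the highest bin) of each Sp6 interval listed for a SOX or forkhead gene (rows), in epithelium (left) and mesenchyme (right); filled points overlap an interval of the other tissue and open points do not, the dashed line is the library's median over annotated intervals, and genes with an asterisk are listed under an older name. All epithelium points are filled, and the highest mesenchyme values are 60 at Foxp2 and 59 at Foxp1.

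By peak value, the member intervals were of ordinary strength or weaker. In epithelium their peak values were 15, 21, 26 and 45, and the highest, at Foxp1, was the only one above the library's median. In mesenchyme they ran from 22 to 60 with a median of 33, against 34 for all annotated intervals (interquartile range 25 to 51, highest 584). The highest value, at Foxp2, stood at the 81.7th percentile of the mesenchyme library. The authors also give an average value per interval. Its median in epithelium was 12.6 for member intervals and 12.8 for all annotated intervals. In mesenchyme it was 12.2 for member intervals and 14 for all annotated intervals (interquartile range 11.5 to 18.5). By this measure the mesenchyme members were on the weaker side. None of the 4 intervals in epithelium or the 15 in mesenchyme touched an interval of either input. A count of 0 among 15 allows a share of up to 20%. Of all annotated intervals, 0.42% in epithelium and 0.139% in mesenchyme touched one, so a count of 0 does not set the members apart.

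The start of Sox4 was the only gene start among the members that lay inside a Sp6 interval. SOX4 is a SOXC factor of progenitor cells, with known roles in heart, nervous system and lymphocyte development. Its interval was in mesenchyme (chr13:29045220-29045947, mm9), 728 bp long, on a CpG island, with the peak centre at -17 bp from the start. The peak value there was 33 (46.2nd percentile), and no epithelium interval overlapped it. The nearest epithelium interval lay 78.2 kb from the Sox4 start. The promoter is shown because it is the only one of a member that the data place under a peak. It holds the 250 bases before the RefSeq start (GRCm38.p6, chr13:28953700-28953949, minus strand), written in the direction of transcription, and capitals mark the letters CCAAT or their reverse complement ATTGG.
Sox4: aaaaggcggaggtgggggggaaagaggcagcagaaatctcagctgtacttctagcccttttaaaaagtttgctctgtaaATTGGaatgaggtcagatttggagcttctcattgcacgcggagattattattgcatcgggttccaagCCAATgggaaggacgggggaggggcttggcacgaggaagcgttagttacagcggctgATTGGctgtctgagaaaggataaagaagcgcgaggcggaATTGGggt

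The Sox4 window has a G and C content of 50.8%, against a median of 55.6% over 17274 protein-coding promoters of the same length from RefSeq. Letters of 4 kinds were searched on both strands: GGGCGG (the GC box bound by SP factors), CACCC (bound by KLF factors), CCAAT, and TAATTA (a core of homeodomain sites). The first pair and TAATTA were not found in the Sox4 window, and CCAAT was found 4 times. GGGCGG is held by 43.2% of all promoters, CACCC by 53.4%, CCAAT by 36.7% and TAATTA by 4.38%. The authors' start is on mm9 and the sequence on GRCm38.p6, and the interval reaches beyond these 250 bases, so the letters describe this window only.

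Sox4 also had the most mesenchyme intervals within 100 kb of its start among the listed family genes. There were 1 in epithelium and 4 in mesenchyme. The median in mesenchyme was 2 (interquartile range 1 to 3) over 3720 genes. Like Sox4, these genes are listed there, and their start could be placed for that reason. Sox4 is named here because its count was the highest of the listed family genes. Sox4 is not listed in epithelium, so its count there was not set beside such genes. The strongest interval within 100 kb lay 78.5 kb past the Sox4 start, in the long non-coding RNA gene 2610307P16Rik. Its peak value was 46 in epithelium (chr13:28966800-28967347, 83rd percentile) and 116 in mesenchyme (chr13:28966690-28967475, 96.1st percentile). That mesenchyme value exceeded those of all member intervals, and the tables do not list this interval for Sox4. A mesenchyme interval 17.9 kb past the start (chr13:29027300-29028033) had no listed gene, so its peak value is not known here.

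All 3 genes of the SOXD group were members. Sox5 and Sox6 are 954 and 569.9 kb long, and 69.2% of all genes of 500 kb or more were listed in mesenchyme. Sox13 is 42.2 kb long, and 22.0% of all genes of 10 to 100 kb were listed there. With 3 genes, the count is no result about the SOXD group as such. SOX5, SOX6 and SOX13 share a coiled-coil domain through which they pair, and they have no activation domain of their own. SOX5 and SOX6 act together with SOX9 in cartilage formation. Sox13 had 1 interval in each tissue, at 26.8 kb from its start inside the gene, with peak centres 32 bp apart. The peak value was 26 in epithelium (chr1:135293727-135294249, 42.8th percentile) and 39 in mesenchyme (chr1:135293686-135294212, 59.1st percentile).

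Sox6 had 4 intervals in mesenchyme and 0 in epithelium. They lay inside the gene at 182, 297, 405 and 506 kb from the listed start, with peak values of 35, 24, 37 and 34 in that order. The highest, 37 (chr7:122769639-122770207), stood at the 55.1st percentile, and the lowest at the 20.1st. The interval nearest to the start (chr7:122991983-122992595) was also listed for LOC100042779, an unnamed locus. The start of that locus is nearer to this interval than the Sox6 start is. Sox5 had 1 mesenchyme interval, 371 kb from its start inside the gene (chr6:143786644-143786982). Its peak value was 23 (17.5th percentile) and its length of 339 bp was the shortest of the member intervals. No epithelium interval lay within 500 kb of the Sox5 start, where mesenchyme had 3. The Sox5 and Sox6 intervals thus stood far from the listed gene starts. Of the SOXD intervals, only that of Sox13 was seen in both tissues.

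Sox30 and Sox15 had weak intervals outside the gene. SOX30 is a factor of spermatid development in the mouse. Sox30 had an interval in each tissue at -6.71 kb (epithelium) and -7.00 kb (mesenchyme) from its start, with centres 288 bp apart. The peak value was 15 in epithelium (chr11:45786674-45787247) and 23 in mesenchyme (chr11:45786553-45787175). The epithelium value stood at the 2.1st percentile and was the lowest of the member intervals. The mesenchyme value stood at the 17.5th.

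SOX15 is known from mouse muscle regeneration and trophoblast giant cells. Sox15 had 1 mesenchyme interval, past the gene at 7.06 kb from its start (chr11:69475545-69476614), on a CpG island, with a peak value of 22 (14.7th percentile). The table lists 5 genes for this interval, and the nearest start is that of Mpdu1, not of Sox15. With each interval given only to the gene with the nearest start, Sox15 was no longer listed and 8 members remained in mesenchyme.

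The strongest member intervals lay in a pair of forkhead genes, Foxp1 and Foxp2. FOXP1 and FOXP2 are repressors that pair through a leucine zipper. FOXP1 acts in lung, heart and B cells, and FOXP2 is known for human speech and for mouse vocal behaviour. Foxp1 had 1 interval in epithelium and 4 in mesenchyme, all inside the gene. The shared one lay 207 kb from the listed start, and the peak centres of both tissues had the same coordinate. Its peak value was 45 in epithelium (chr6:98906005-98906600, 82.3rd percentile) and 59 in mesenchyme (chr6:98906023-98906652, 81.1st percentile). The rank within the library was therefore nearly the same in both tissues.

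The other Foxp1 intervals of mesenchyme lay 58.5, 94.8 and 163 kb from the start, with peak values of 53, 26 and 25. The first (chr6:99054267-99054889) stood at the 76.5th percentile, close to the shared one, and had no epithelium counterpart. The promoter table gives 3 starts for Foxp1 and 6 for Sox6, so these distances are to the start that the authors' annotation used, and another start of the gene may be nearer.

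Foxp2 had 1 interval in each tissue, 292 kb from its start inside the gene. The peak value was 21 in epithelium (chr6:15143239-15143709, 21.5th percentile) and 60 in mesenchyme (chr6:15143112-15143792, 81.7th percentile), with centres 48 bp apart. Foxp2 thus stood in the lower part of the epithelium library and in the upper part of the mesenchyme library, unlike Foxp1. No other interval lay within 500 kb of the Foxp2 start in either tissue.

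FOXN4 directs retinal amacrine and horizontal cells and spinal interneurons in the mouse. Foxn4 had 1 mesenchyme interval inside the gene, 4.63 kb from its start (chr5:114718761-114719348), with a peak value of 23 (17.5th percentile). Together with Sox4 it was the only member with an interval at most 5 kb from its start. In epithelium 0 of 4 member intervals and in mesenchyme 2 of 15 (13.3%, 3.74 to 37.9%) lay that near. Of all annotated intervals, 20.6% in epithelium and 23.6% in mesenchyme lay at most 5 kb from the nearest of their listed starts. For member intervals only the member's own start was counted, so these shares are not measured alike.

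**Figure D2:**
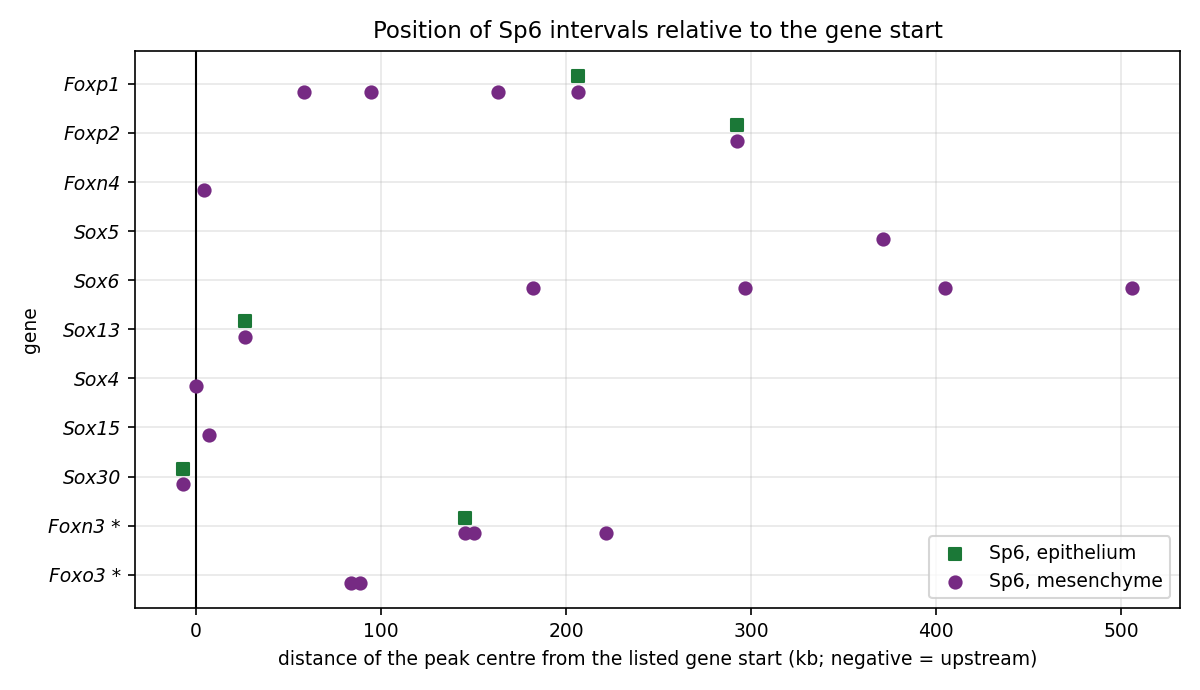
Distance of each peak centre from the listed gene start (x axis, kb, negative upstream), for SOX and forkhead genes (rows) in epithelium (squares) and mesenchyme (circles); genes with an asterisk are listed under an older name. Intervals of Sox4, Foxn4, Sox15 and Sox30 lie within 10 kb of the start, and those of Sox6 reach 506 kb.

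Foxn3 and Foxo3, outside the rule because of their older names, showed the same kind of intervals. FOXN3, first named checkpoint suppressor 1 for its effect in yeast, is a repressor, and FOXO3 is a factor of stress response and cell survival that AKT holds in the cytoplasm. Foxn3 had 1 interval in epithelium, with a peak value of 17 (chr12:100542628-100543110), and 3 in mesenchyme, with 39, 38 and 20, all inside the gene. The epithelium interval overlapped the weakest of the mesenchyme ones, 145 kb from the start. Foxo3 had no epithelium interval and 2 in mesenchyme, with peak values of 26 and 12, at 83.8 and 88.7 kb inside the gene. The value of 12 stood at the 0.0416th percentile, near the lowest of the library, 11.

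All 4 member intervals of epithelium overlapped a mesenchyme interval, and 4 of the 15 of mesenchyme overlapped one of epithelium (26.7%, 10.9 to 52.0%). Of all annotated intervals, 87.4% in epithelium and 28.7% in mesenchyme did so. The overlap of the members was therefore that of the lists as wholes. At the 4 shared intervals the log2 ratio of the deposited peak value in epithelium over mesenchyme was -0.39 at Foxp1, -0.58 at Sox13, -0.62 at Sox30 and -1.51 at Foxp2. The median was -0.60, against -0.97 over all 2083 overlapping pairs (interquartile range -1.35 to -0.58). The ratio at Foxp2 was higher than 16% of all pairs, and that at Foxp1 higher than 82.9%. None of them lay at either end of the range of all pairs. Because the scaling is not stated, the ratio does not measure a difference in binding.

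**Figure D3:**
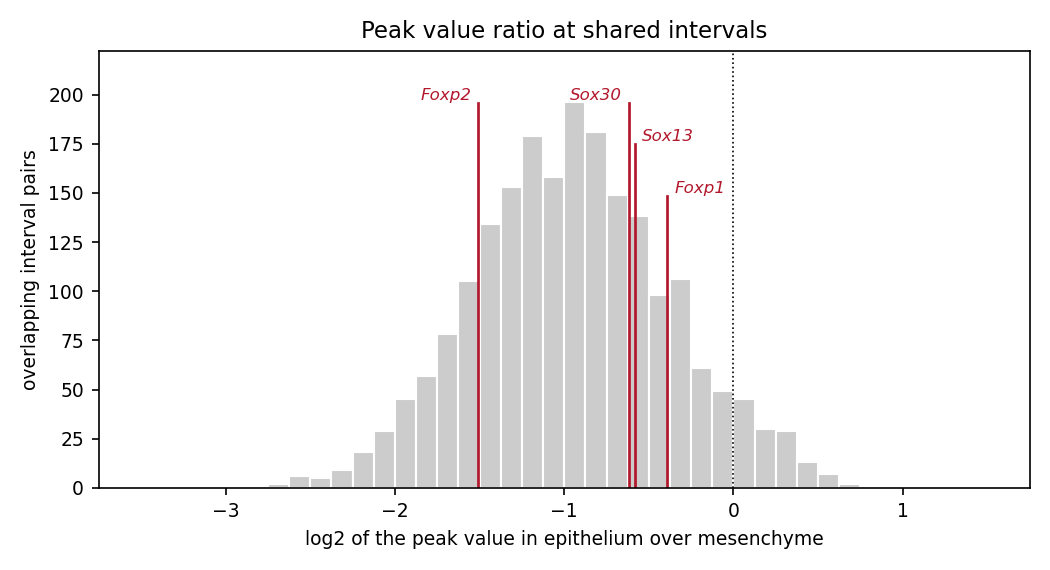
Number of overlapping interval pairs (y axis) by log2 ratio of the peak value in epithelium over mesenchyme (x axis) for 2083 pairs of annotated intervals, with red lines at the 4 pairs of member genes. Foxp2 lies at -1.51, and Sox30, Sox13 and Foxp1 lie between -0.62 and -0.39.

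Intervals on CpG islands numbered 0 of 4 in epithelium and 2 of 15 in mesenchyme, at Sox4 and Sox15. Of all annotated intervals 4.20% in epithelium and 8.45% in mesenchyme were on one. Many member intervals were remote from the listed start of the member. Those over 50 kb from it numbered 2 of 4 in epithelium and 10 of 15 in mesenchyme (66.7%, 41.7 to 84.8%). Of all annotated intervals, 35.7% in epithelium and 35.4% in mesenchyme lay that far from every listed start. For member intervals only the member's own start was counted, so these shares, too, are not measured alike. The 10 intervals belong to 4 genes (Foxp1, Foxp2, Sox5 and Sox6), all of them over 500 kb long, so they are not independent. RefSeq gives 3 starts for Foxp1 and 6 for Sox6, and distances from their other starts were not measured. The count of remote intervals therefore holds for the start that the authors' annotation used.

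The members were longer than the absent genes. The median length in RefSeq was 42.2 kb for the 9 members, 4.44 kb for the 51 absent genes and 17.3 kb for all protein-coding genes. Of the 40 family genes under 10 kb, 0 were listed in epithelium, which allows a share of up to 7.5%, and 2 in mesenchyme (5.0%, 1.38 to 16.5%). The shares of all genes of that length were 3.06% in epithelium and 9.69% in mesenchyme. Of the 17 family genes of 10 to 100 kb, 2 were listed in epithelium (11.8%) and 4 in mesenchyme (23.5%), against 8.46% and 22.0% of all genes of that length. The 5 genes of 100 kb or more are Foxp1, Foxp2, Foxn3, Sox5 and Sox6. Of these 3 were listed in epithelium (60%, 23.1 to 88.2%) and 5 in mesenchyme (100%, 56.6 to 100%), against 29.7% and 55.6% of all genes of that length. All of them but Foxn3 are over 500 kb long. Of all genes of 500 kb or more, 40.1% were listed in epithelium and 69.2% in mesenchyme, so the class of 100 kb or more is not a close match. Sox6 and Foxp1, with 4 mesenchyme intervals each, shared that number or a higher one with 27.8% of the 227 genes of 500 kb or more.

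**Figure D4:**
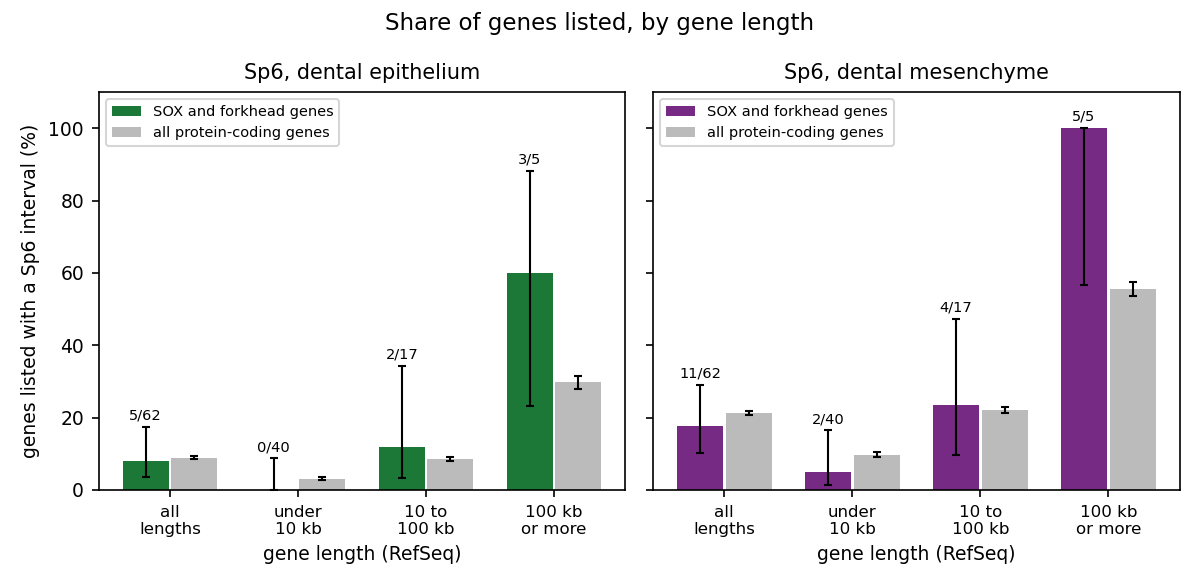
Share of genes listed with a Sp6 interval (y axis, percent, older names resolved) by gene length (x axis) for SOX and forkhead genes (coloured) and all protein-coding genes (grey), in epithelium (left) and mesenchyme (right); bars carry Wilson 95% intervals and the numbers are listed genes over genes. In both tissues the share is highest at 100 kb or more, 3 of 5 genes in epithelium and 5 of 5 in mesenchyme.

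Absent from both tables were whole groups of the SOX family. These were SOXB1 (Sox1, Sox2 and Sox3, factors of neural and stem cells), SOXB2 other than Sox21 (Sox14), SOXE (Sox8, Sox9 and Sox10, factors of neural crest and cartilage) and SOXF (Sox7, Sox17 and Sox18, factors of vessels and endoderm). Of SOXC, Sox11 and Sox12 were absent. All of these absent SOX genes are under 10 kb long. Of all genes of that length, only 3.06% were listed in epithelium and 9.69% in mesenchyme, so their absence does not set these groups apart. In the whole SOX family, 2 of 18 genes were listed in epithelium (11.1%, 3.1 to 32.8%) and 6 in mesenchyme (33.3%, 16.3 to 56.3%), against 8.92% and 21.4% of all protein-coding genes.

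In the forkhead family, older names included, 3 of 44 genes were listed in epithelium (6.82%, 2.35 to 18.2%) and 5 in mesenchyme (11.4%, 4.95 to 24.0%), against the same shares of all genes. The absent ones included all genes of FOXA (Foxa1, Foxa2, Foxa3), the pioneer factors of endoderm, FOXC (Foxc1, Foxc2) and FOXF (Foxf1, Foxf2), factors of mesenchyme, and FOXI (Foxi1, Foxi2, Foxi3), with the dental epithelium gene Foxi3. All genes of these groups but Foxa3 (10.3 kb) are under 10 kb long, where 3.06% of all genes were listed in epithelium and 9.69% in mesenchyme. Among the other absent genes were Foxb1, Foxb2, Foxd1, Foxd2, Foxd3, Foxd4, Foxe1, Foxe3, Foxh1, Foxj1, Foxj2, Foxj3, Foxk1, Foxk2, Foxl1, Foxl2, Foxm1, Foxn1, Foxn2, Foxo1, Foxo4, Foxo6, Foxp3, Foxp4, Foxq1, Foxr1, Foxr2 and Foxs1. The tables pair a gene with intervals inside it, past its end, or at most 10 kb upstream, so an absent gene may still have an interval farther away, and these distances were not analysed here for absent genes.

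Genes linked to SOX and FOXO factors were counted as lists, whether or not the factor itself is a member. Of 12 partners of SOX factors, 3 were listed in epithelium and 4 in mesenchyme. The highest peak values among them were at Chd7, a chromatin remodeller that binds SOX2, with 38 in epithelium and 102 in mesenchyme at 75.6 kb inside the gene. Ctnnb1 (beta-catenin) had 24 in epithelium and 66 in mesenchyme, and Tcf7l2, a WNT effector, had 25 in epithelium and 60 in mesenchyme. Of 12 cartilage genes under SOX9, SOX5 and SOX6, 2 were listed in epithelium and 4 in mesenchyme. Acan (aggrecan) had 46 in epithelium and 73 in mesenchyme at 27.9 kb inside the gene. Col11a2, a collagen XI chain, had 16 in epithelium and 42 in mesenchyme at -0.446 kb from its start. Hapln1, a link protein of cartilage matrix, had 36 in mesenchyme only.

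Of 15 regulators of FOXO factors in the PI3K and AKT pathway, 2 were listed in epithelium and 6 in mesenchyme. Irs1, an insulin receptor substrate, had 62 in epithelium and 89 in mesenchyme at 34.2 kb, and Pik3cb, a PI3K catalytic subunit, had 28 in epithelium and 103 in mesenchyme at 98.9 kb. Of 12 FOXO target genes, 1 was listed in epithelium and 4 in mesenchyme. In mesenchyme only, Cdkn1b, a cell cycle inhibitor, had 39 and Sesn1, a stress-response gene, had 34, both past the gene. Txnip, an inhibitor of thioredoxin, had 26 in epithelium and 28 in mesenchyme over its start. Counts of 1 to 6 genes in lists of 12 to 15 carry wide intervals, such as 19.8 to 64.3% for the 6 of 15. All 8 intervals contain the share of all protein-coding genes in that tissue. That share is not matched for gene length. The median length was 69 kb for the FOXO regulators, 28.3 kb for the SOX partners and 26.1 kb for the cartilage genes. It was 12.4 kb for the FOXO targets and 17.3 kb for all protein-coding genes.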

How the data were processed

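Intervals were called per library with MACS 1.3.7.1 on mouse genome build mm9, per the submitters' processing notes. Neither the aligner nor the calling thresholds, use of the inputs or scaling are stated in the labels, and depth is unknown. The deposited tables give signal values, namely the peak value and the average value of an interval, with distances in bp and numbers of CpG islands per interval, per the file headers. The deposited BED starts were raised by 1 so that coordinates count from 1. Gene names were matched to symbols and unambiguous synonyms of a RefSeq table (assembly GRCm38.p6), used for names and lengths only. In epithelium 1999 of 2239 names matched, and in mesenchyme 4817 of 5391. Genes on Y and MT were left out of the 21631 protein-coding genes. Intervals overlapping by at least 1 bp were called shared. Gene starts on mm9 were computed from the peak centre and the listed distance. Promoter sequences are from RefSeq.

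Members, gene lists and tests were chosen with earlier results of these data known, and the searched letters after the data were seen. Values were given for each member and for up to 3 genes of each other list with the highest peak value, and some items are not reported here. Wilson 95% intervals and limits from a count of 0 (3 counts) cover counting error only. The overlap and name functions were tested on simulated data. No test was made, as each group has 1 library. Python 3.11.15 and pandas 2.3.3 were used.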

Additional observations from a re-analysis of the deposited data

How the results depend on the processing

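The counts of members change with how many intervals are kept. In the top 50% of annotated intervals, epithelium kept 1 member with 1 interval (Foxp1) and mesenchyme 4 members with 7 intervals (Foxp1, Foxp2, Sox6 and Sox13), with 1 member in both tissues and 1 shared interval in each. With mesenchyme limited to its 2381 strongest annotated intervals, as many as epithelium has, mesenchyme kept 2 members with 3 intervals (Foxp1 and Foxp2). Epithelium kept its 4 members, so Sox13 and Sox30 were then listed in epithelium only. None of Sox4, Sox5, Sox6, Sox15 and Foxn4 was still listed in mesenchyme. In that setting 2 members and 2 intervals of each tissue were shared. Members with an interval near the start numbered 0 in epithelium and 1 in mesenchyme within 1 kb, and 1 in epithelium and 4 in mesenchyme within 10 kb. With only the nearest listed gene, mesenchyme kept 13 member intervals, 1 of them on a CpG island. The intervals lost were that of Sox15 and the Sox6 interval also listed for LOC100042779. The median log2 ratio was -0.34 with average values and -0.58 with peak centres within 100 bp. With centres that near, 3 member intervals of each tissue were shared, since the Sox30 centres lay 288 bp apart. Leaving out intervals on input and a reciprocal overlap of 50% changed no value. With older names, an alternative chosen after the data were seen, 5 genes were listed in epithelium and 11 in mesenchyme. No paired analysis was possible because each group has 1 library. Unknown depth limits these counts.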

Other observations

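Other families of developmental transcription factors were counted in the same way, where 8.92% of all protein-coding genes were listed in epithelium and 21.4% in mesenchyme. Of 39 HOX genes, which pattern the body axis, 0 were listed in either tissue, which allows a share of up to 7.69%. That limit takes the HOX genes as independent of each other, which was not tested. Their median length was 3.74 kb, and of all genes under 10 kb 3.06% were listed in epithelium and 9.69% in mesenchyme. Of 9 PAX genes 1 (Pax5, 11.1%) was listed in both tissues. Of 13 TBX genes 1 was listed in epithelium (Tbx21, 7.69%) and 2 in mesenchyme (Tbx2 and Tbx21, 15.4%). The SOX and forkhead genes had 5 of 62 in epithelium and 11 of 62 in mesenchyme. The differences between families were not tested.

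Within 500 kb of the start, the listed family genes had 0 to 6 intervals in epithelium and 1 to 13 in mesenchyme. The median in mesenchyme was 7 over 3720 genes listed there, as all 11 family genes are. For epithelium, where 6 of the 11 are not listed, no such median was set beside them. Of the 11 mesenchyme intervals within 500 kb of Sox4, 6 had no listed gene.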
